A study of Mus musculus with 6 samples.

Results

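The 10 mouse genes Rad51b, Tnfrsf21, Vps13d, Mtus1, Dach1, Stxbp6, Macrod2, Zfhx3, Nfil3 and Edn1, of 21887 protein-coding genes, were examined for their sites of the transcription factor Foxa1. They were chosen because many such sites in and around them were listed after 2 weeks of tamoxifen and not after 6 months (early and late below). Binding had been mapped by ChIP-seq, the sequencing of DNA precipitated with an antibody to each factor, in mouse prostate tumor cells (strain C57BL/6). The groups were Foxa1, Foxa2 and input after 2 weeks of tamoxifen and after 6 months of tamoxifen, 1 library each, and every group had received tamoxifen. The protocol names 3 dissected mouse prostates, and the labels state neither genotype nor age nor any transgene on which tamoxifen acts. In bulk chromatin a change in the number of cells of a type and a change of binding within cells cannot be told apart.

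Foxa1 and Foxa2 are forkhead proteins known as pioneer factors. Their winged-helix domain can bind DNA wrapped on nucleosomes, and their sites lie mostly in enhancers far from gene starts, where they help other factors such as the androgen receptor to bind. In the prostate Foxa1 marks the luminal epithelium, and Foxa2 is known from the developing gland and from tumours with neuroendocrine features.

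A region is a peak of a deposited list, and it was assigned to a gene when its summit lay inside the gene, or else when that gene had the nearest end within 100 kb. The lists held 54226 Foxa1 regions at 2 weeks, 35869 Foxa1 regions at 6 months, 34942 Foxa2 regions at 6 months and 1 Foxa2 region at 2 weeks, which lay at none of the 10 genes. A 2-week region that shared at least 1 bp with a 6-month Foxa1 region is called persisting here, and any other is called lost, which means only that no overlapping region was listed at 6 months. A weak or shallow library lists fewer regions, read depth is unknown from these files, and since each group was a single library no difference could be set against replicate spread and no test was made. Intervals are exact Clopper-Pearson intervals of 95% and cover counting error only. Strength is the authors' -log10 of the q-value, given as its place within its own list, as the percentage of that list's regions that are weaker. The luminal prostate genes Krt8, Krt18, Pbsn, Hoxb13 and Tmprss2 all had a Foxa1 region at 2 weeks and 3 of the 5 (Krt8, Krt18 and Tmprss2) at 6 months. Their counts at 2 weeks and 6 months were 3 and 4 at Krt8, 3 and 3 at Krt18, 1 and 0 at Pbsn, 4 and 0 at Hoxb13, and 22 and 11 at Tmprss2. Such regions place binding near these genes and do not measure their expression. Markers of seminal vesicle and urothelium, tissue beside the prostate, had 9 Foxa1 regions at 2 weeks (Upk1b 5, Upk3a 3, Svs4 1) and 0 at 6 months. Basal markers (Krt14 and Trp63, with Krt5 at 0 both times) had 9 and 6, markers of stroma (Acta2 and Des) 4 and 2, and those of immune cells (Ptprc and Cd3e) 5 and 1. The part of other tissue in the losses described here was not tested.

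The members were chosen from the Foxa1 counts at both times, so those counts describe the choice and are not evidence for it. With all regions, the 10 genes held 402 Foxa1 regions at 2 weeks, 67 at 6 months and 75 Foxa2 regions at 6 months. At least 10 fewer regions at 6 months were counted for 9 of the 10, with Nfil3 at 8 fewer, and for 464 of all 21887 genes, 2.12%. On lists cut to the same length of 34942 regions, 112 genes, 0.512%, had at least 10 fewer. There the 10 largest deficits ran from 31 regions at Rad51b to 20 at Kcnma1, and included Pard3b with 24. Just outside came Mpped2, Pdlim5 and Tcf7l2 with 19 fewer each and Nfia and Sntg1 with 18 fewer. Edn1 had 13 fewer and Nfil3 6 fewer on that scale, so this pair was not among the largest deficits.

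**Figure D1:**
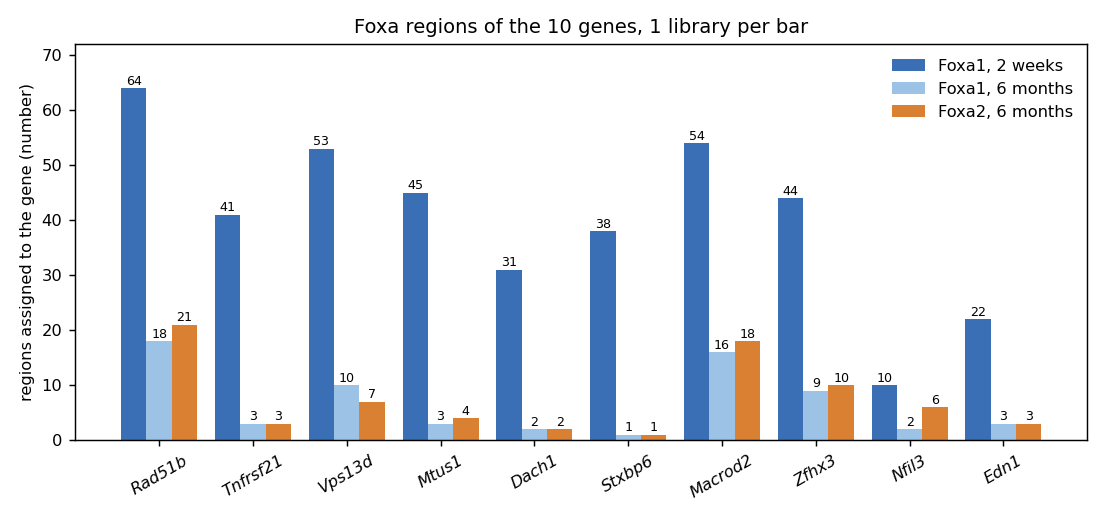
Number of regions (vertical axis) assigned to each of the 10 genes, with a bar for early Foxa1 (2 weeks), late Foxa1 and late Foxa2 (6 months), 1 library per bar and so no error bar. Foxa1 counts at 2 weeks run from 10 at Nfil3 to 64 at Rad51b, and the 6-month counts of both factors lie below them in every gene.

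Of the 402 Foxa1 regions at 2 weeks, 43 persisted, 10.7% (interval 7.85 to 14.1%), against 21.8% of the whole 2-week list. The members were chosen on this contrast, so the distance between these shares is a description. The genes differed among themselves. Rad51b kept 14 of 64 regions, 21.9% (12.5 to 34.0%), the highest share of the 10. That number depended on the rule: 6 persisted with summits within 200 bp, 3 with a reciprocal overlap of 50% and 7 with close neighbours merged, and inside the gene 5 of 45 did. Stxbp6 kept 1 of 38, 2.63% (0.0666 to 13.8%), and Dach1 kept 1 of 31, 3.23% (0.0816 to 16.7%). Between them stood Mtus1 with 3 of 45, Tnfrsf21 with 3 of 41, Edn1 with 2 of 22, Zfhx3 with 4 of 44, Vps13d with 6 of 53, Macrod2 with 7 of 54 and Nfil3 with 2 of 10. When both lists were limited to -log10 q values of 5 or more the persisting share was 6.84% (18 of 263), and with a reciprocal overlap of 50% it was 3.48%, while the whole list stood at 18.3% and 9.57%.

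Foxa2 values had not been used to choose the genes, but Foxa2 regions mostly lay with late Foxa1 regions, so their number at early sites follows the choice on Foxa1 and is given as a description. At 6 months a Foxa2 region overlapped 45 of the 402 early Foxa1 regions, 11.2% (8.28 to 14.7%), against 21.7% of the whole list. Where Foxa1 persisted, Foxa2 was listed as well in 32 of 43 regions, beside 81.9% of persisting regions in the whole list. Where Foxa1 was lost, Foxa2 was listed in 13 of 359 regions, 3.62% (1.94 to 6.11%), and the whole list gave 4.90%, inside that interval. Neither factor was listed at 346 early regions, 86.1% of them. Foxa2 was thus rarely listed where Foxa1 had been lost at these genes, as in the list as a whole, with Nfil3 as the member that differed most (3 of 8).

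With the 10 genes pooled, strength within the 2-week list went with persistence. The 43 persisting regions had a median place of 77.0%, a median fold enrichment of 5.64 and a median width of 1075 bp, and the 359 lost regions 50.4%, 4.03 and 481 bp. In the whole list these medians were 69.1%, 5.13 and 734 bp for persisting and 45.3%, 3.86 and 421 bp for lost regions. Zfhx3 went the other way, with median places of 44.6% for its 4 persisting and 51.8% for its 40 lost regions. A wider region shares 1 bp with another more easily, and the part of width in these differences was not tested. The member regions were not weak at 2 weeks: their median place was 52.9%, and 38 of the 402 were in the strongest 10% of the list. Of those 38, 13 persisted, 34.2% (19.6 to 51.4%), beside 48.3% of all regions of that strength. In each of the 10 strength classes the share at the 10 genes lay below that of all regions of the class. The genes were chosen for few late regions where there were many early ones, so this restates the choice class by class and is no separate result.

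**Figure D2:**
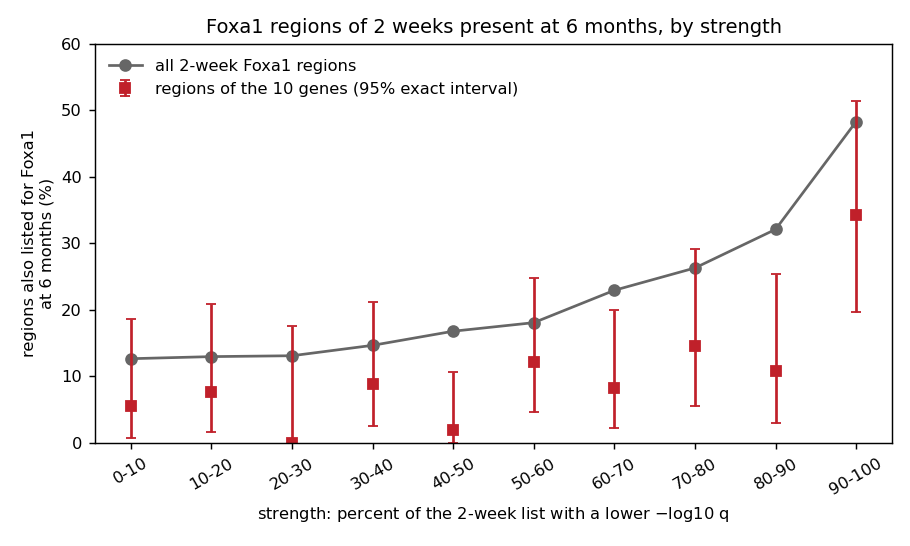
Share of 2-week Foxa1 regions with an overlapping Foxa1 region at 6 months (vertical axis, %) in 10 classes of strength (horizontal axis, percent of the 2-week list that is weaker), for all regions (circles) and for the regions of the 10 genes (squares, with exact 95% intervals). The line rises from 12.7% to 48.3%, and the squares lie below it in every class, from 0% to 34.2%.

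Persisting regions overlap a late region by definition, so summits close to each other follow in part from that rule. The summit of the strongest overlapping 6-month region was a median of 121 bp from the 2-week summit at the 10 genes. It was within 200 bp for 27 of 43, 62.8%. Over all 11825 persisting regions the median was 105 bp, and 69.6% were within 200 bp. The median width was 1075 bp for the persisting member regions and 560 bp for the strongest 6-month region on each. Single sites went either way, and a late region on several early ones was counted for each. The median width of all regions was 472 bp in the 2-week list and 346 bp in the 6-month list. The matched late regions, the strongest on each early region, had a median place of 61.7% within the 6-month list. Of 43 persisting regions, 25 were matched by a region above its middle. Counted once each, the 48 late regions on early ones had a median width of 363.5 bp. Their median place was 48.9%, near the middle of the list.

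Of the 402 early regions 298, 74.1%, lay inside the gene, beside 56% of the whole list, and 104 in its flanks. The persisting share was 30 of 298 inside and 13 of 104 outside, and in the whole list it was 23.0% inside genes and 20.8% in flanks. Of the 13 outside, 9 lay beyond the end of Rad51b, where 9 of 19 persisted. The pooled flank share thus rests mostly on that gene and does not describe the flanks of the others. Along the gene from start to end, in 5 equal parts, 11 of 78, 5 of 53, 4 of 45, 8 of 65 and 2 of 57 persisted, with Mtus1 counted from its end of lower coordinate because its strand was not in the table used. With so few persisting regions, long rows of lost ones follow from the counts, and they are given here only for their place. At Stxbp6 28 neighbouring regions in a row, over 308 kb, were lost, at Tnfrsf21 26 over 135 kb and at Vps13d 23 over 98.7 kb. Zfhx3 had a row of 19, Dach1 of 15, Rad51b and Mtus1 of 14, Macrod2 and Edn1 of 13 and Nfil3 of 7.

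**Figure D3:**
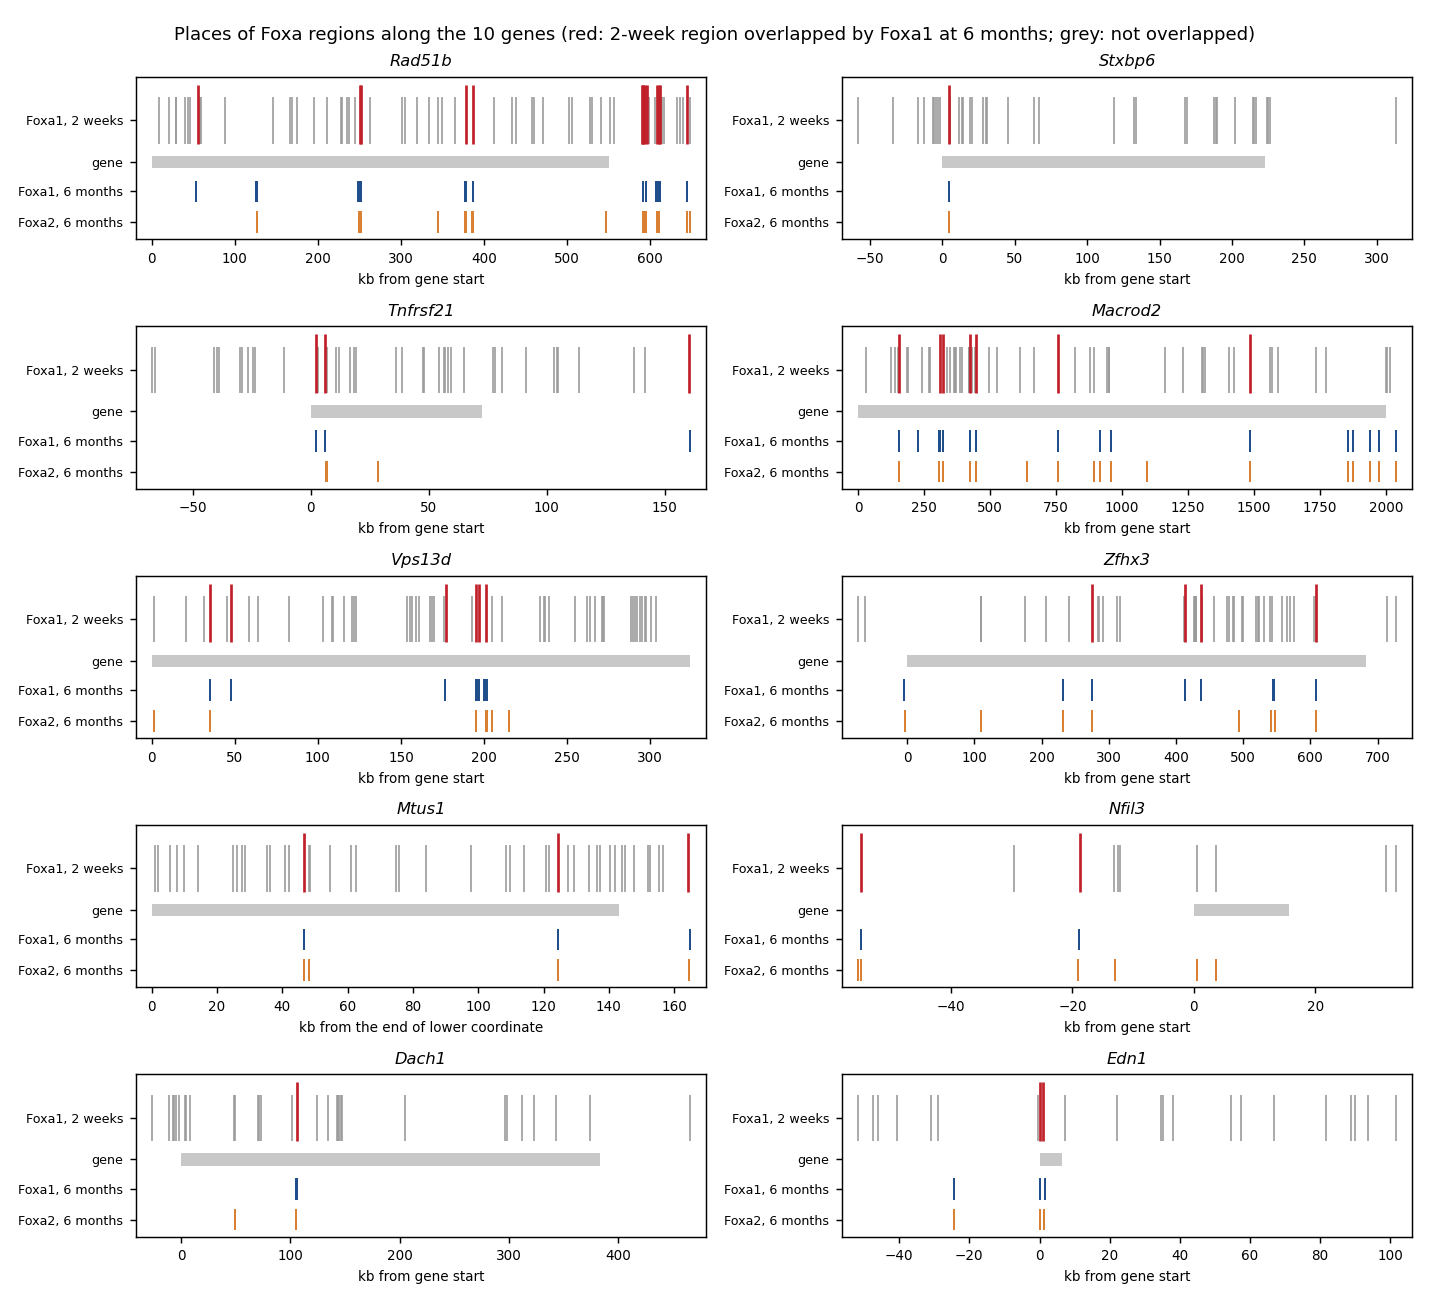
Place of each region by its summit (horizontal axis, kb from the gene's start, or from its end of lower coordinate for Mtus1) in the 10 genes. Grey bars mark the gene, red ticks the 43 persisting and grey ticks the 359 lost Foxa1 regions of 2 weeks, and blue and orange ticks the 67 Foxa1 and 75 Foxa2 regions of 6 months.

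Among the transcription regulators, Dach1 encodes a nuclear cofactor of the retinal determination network (chromosome 14, 97786846 to 98169765, mm10). It had 31 Foxa1 regions at 2 weeks, 24 of them inside the gene and 6 within 26.8 kb before its start. The single persisting region lay 106 kb from the start (98063961 to 98064618; fold enrichment 6.26 at 2 weeks), where 2 short Foxa1 regions and 1 Foxa2 region were listed at 6 months. Its strongest early region, 124 kb from the start (98044696 to 98046102; fold 10.4), was in neither 6-month list. A second Foxa2 region, 49.0 kb from the start, lay on a lost Foxa1 region. Of genes in the same network, Eya4 had 11 Foxa1 regions at 2 weeks and 1 at 6 months, Eya1 5 and 3, and Eya2 13 and 14.

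Zfhx3 encodes a large zinc finger and homeodomain protein that is mutated in some prostate cancers (chromosome 8, 108279311 to 108961636). It had 44 early Foxa1 regions, 22 of them in the fourth part of the gene, where 2 persisted. Its strongest early region (108716051 to 108717443; fold 9.08), which lies 437 kb from the gene's first base and close to the start at 108714644 in the RefSeq promoter table, was met by only a weak 6-month Foxa1 region (fold 2.67, place 5.75%) and no Foxa2 region. The reverse order was seen 275 kb from the gene's first base, where an early region of fold 2.93 and place 34.0% was matched by one of fold 5.82 and place 90.9%, with Foxa2. Of its 9 Foxa1 regions at 6 months 5 had no early counterpart. The strongest of these, 3.90 kb before the gene (fold 4.58), carried Foxa2. Among 10 Foxa2 regions 4 overlapped no Foxa1 region of either time. The related genes Zfhx2, Zfhx4 and Adnp had 4 early and 3 late Foxa1 regions together.

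Nfil3 encodes a basic leucine zipper repressor with roles in the circadian clock and in immune cells (chromosome 13, 52967209 to 52982878). It had 10 early Foxa1 regions, 2 of them inside the gene. The strongest (52950046 to 52951885, 16.0 kb beyond the gene's end) had a fold enrichment of 21.1 and rank 24 in the whole 2-week list, and no Foxa1 or Foxa2 region overlapped it at 6 months. The 2 persisting regions lay 18.8 and 54.9 kb before the start and carried Foxa2 as well. Foxa2 had 6 regions at this gene, all on early Foxa1 regions, and 3 of them marked sites where Foxa1 was lost: both early regions inside the gene, 0.574 and 3.69 kb from its start, and one 13.1 kb before it. These 3 early regions were of middling strength (places 37.5 to 45.2%). Clock genes and relatives of Nfil3 did not share 1 direction, since 5 of 9 had fewer and 4 more Foxa1 regions at 6 months, among them Bhlhe40 with 12 and 4, Per2 with 2 and 6, and Tef with 2 and 0.

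Of the signalling genes, Edn1 encodes endothelin 1, a secreted vasoactive peptide (chromosome 13, 42301476 to 42307990). It had 22 early Foxa1 regions, of which only the 2 inside the gene persisted. All 7 regions before the start and all 13 beyond the end, up to 102 kb from the start, were lost, and neither factor was listed at any of them at 6 months. Of these, 3 were among the strongest 10% of the list, the strongest 66.9 kb from the start (42367869 to 42370346; fold 11.6). The persisting regions were one over the start (42301287 to 42301720; fold 4.42) and a wide one just inside the gene (42302000 to 42304655; fold 8.38). Both were met at 6 months by Foxa1 (folds 2.99 and 5.09) and by Foxa2 (folds 3.13 and 5.21). Edn1 was the only one of the 9 members in the promoter table with a listed start covered by a region of any list, and 2.22% of 17492 genes had a start covered by an early Foxa1 region, 1.34% by a late one and 1.19% by Foxa2.

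The 250 bases before the Edn1 start (chr13:42301226-42301475, plus strand, GRCm38.p6, RefSeq) are shown because this was the one member promoter under a region. Capitals mark the only match in them to TGTTTNC on either strand, a loose form of the forkhead core.

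Edn1: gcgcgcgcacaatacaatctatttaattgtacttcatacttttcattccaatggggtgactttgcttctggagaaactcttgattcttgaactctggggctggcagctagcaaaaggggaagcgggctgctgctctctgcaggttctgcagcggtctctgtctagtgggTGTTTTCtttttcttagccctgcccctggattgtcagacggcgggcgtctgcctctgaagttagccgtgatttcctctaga

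The match begins 81 bases before the start and lay inside the Foxa1 regions of both times and outside the Foxa2 region. The stricter forms TGTTTAC and TGTTTGC, which TGTTTNC contains, were found in none of the 9 member promoters, on both strands of windows from 250 bases before to 50 after the start. They were present in 3.65% and 5.07% of all 32851 such windows, and TGTTTNC, added after the data were examined, in 20.5%. A match is a string of letters and not a measured contact. Of 6 further endothelin genes 4 had more Foxa1 regions at 6 months and 1 had fewer: Edn3 had 0 and 4, the receptor gene Ednra 3 and 6, and the receptor gene Ednrb 3 and 0.

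Tnfrsf21 encodes death receptor 6 of the tumour necrosis factor receptor family (chromosome 17, 43016555 to 43089188). Its 41 early Foxa1 regions lay inside the gene (19) and in both flanks (11 each). The 3 persisting regions lay 2.43 and 6.13 kb from the start and 87.7 kb beyond the end. The region at 6.13 kb (43022225 to 43023205) had fold 6.40 and place 79.1% in the 2-week list. The late Foxa1 region on it had fold 6.10 and place 90.6% in the 6-month list, and Foxa2 was listed there too. The strongest early region, 59.6 kb from the start (43075345 to 43076853; fold 10.9), was lost. Foxa2 had 3 regions, all inside the gene, 1 of them away from any Foxa1 region. Other death receptor genes had few regions: Fas had 5 and 4, Eda2r 4 and 1, and Tnfrsf1a, Tnfrsf10b and Tnfrsf25 had 0 at both times.

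Of the genome maintenance genes, Rad51b encodes a protein of the homologous recombination machinery (chromosome 12, 79297282 to 79848260). Inside the gene 5 of 45 early regions persisted, and in the flank beyond its end, towards Zfp36l1, 9 of 19 did. The largest early region there (79903901 to 79906686, 56.9 kb beyond the end) had fold 19.7 and rank 51 in its list, and at 6 months the strongest Foxa1 region on it had fold 5.76, with Foxa2 present. Chains of close regions add to the count: 4 early regions 590.3 to 594 kb from the start met 1 wide late region (79887678 to 79891349), and once neighbours closer than 1 kb were merged, 7 rather than 14 persisted. Inside the gene the strongest late region (79674916 to 79676133; fold 5.95) lay on an early one of fold 9.08. Of 18 late Foxa1 regions 4 were without an early counterpart, the strongest 126 kb from the start with Foxa2. Of other recombination genes, Xrcc2 had 2 early and 0 late Foxa1 regions and Xrcc3 1 and 1.

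Macrod2 encodes an enzyme that removes ADP-ribose from proteins (chromosome 2, 140395303 to 142392966) and is the longest of the 10 genes at 1998 kb, with 2.55 early regions per 100 kb, the lowest density. In the 2 parts nearest the start 6 of 32 early regions persisted, and in the other 3 parts 1 of 19. It had the most regions of its own at 6 months: 9 of its 16 late Foxa1 regions had no early counterpart, and 7 of these carried Foxa2. The late region 757 kb from the start (141151733 to 141152996; fold 6.84, place 93.2%) lay on a small early region of fold 3.72 and place 36.4%. The strongest early region, 1773 kb from the start (142167821 to 142169274; place 96.9%), was lost. Macrod1 had 4 and 3 regions, Parp1 1 and 2, and Parp14 none.

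Of the genes of membranes and cytoskeleton, Vps13d encodes a lipid transfer protein (chromosome 4, 144871045 to 145195037). All 53 early Foxa1 regions lay inside it. The part of the gene farthest from its start, of 5 equal parts, held 16 of them and none persisted. The gene overlaps Dhrs3, a retinaldehyde reductase gene. The 12 early regions inside both, with summits 271 to 300.2 kb from the Vps13d start, were counted for both genes and were all lost. The strongest early region, 35.3 kb from the start (145159460 to 145160534; fold 12.9), persisted with fold 5.95 and carried Foxa2. The 6 persisting regions met all 10 late Foxa1 regions, since wide early regions were covered by several short late ones. Those from 195 to 201 kb from the start held the strongest late sites of the gene: Foxa1 with fold 8.41 (144998809 to 145000853; place 96.7%) and Foxa2 with fold 11.5 (place 99.1%). Its relatives Vps13a, Vps13b and Vps13c had 3 and 1, 19 and 6, and 4 and 2.

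Mtus1 encodes a microtubule-associated protein regarded as a tumour suppressor (chromosome 8, 40990912 to 41133983). With 25.9 early regions per 100 kb inside the gene its density was near that of Tnfrsf21 (26.2), against 6.27 for Dach1 and 5.86 for Zfhx3. None of its 45 early regions was among the strongest 10%, and the strongest (41017755 to 41019057; fold 7.95) was lost. The 3 persisting regions were all overlapped by a Foxa2 region at 6 months, but only 2 of the 3 late Foxa1 regions were. All 3 late Foxa1 regions stood near the middle of their list (folds 2.82, 3.60 and 3.43; places 51.4, 55.6 and 43.8%). Mtus2 had 5 and 3 Foxa1 regions.

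Stxbp6 encodes amisyn, a protein that binds SNARE proteins of vesicle fusion (chromosome 12, 44852484 to 45075118). Its 1 persisting region was also its strongest early one, 4.74 kb from the start (45070123 to 45071813; fold 11.5, place 96.6%), and at 6 months it held a Foxa1 region of fold 3.43 and a Foxa2 region of fold 2.76, the only late regions of this gene. The other 37 early regions, 4 of them among the strongest 10% of the list, were listed for neither factor at 6 months. Of related syntaxin binding genes, Stxbp5 had 7 early and 3 late Foxa1 regions, Stxbp3 0 and 4, Stxbp4 3 and 5, and Stxbp5l 6 and 6.

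Over all 49 related genes that were found of 50 listed, 22 had fewer Foxa1 regions at 6 months and 14 more, 44.9% and 28.6%, where 36.3% and 13.1% of all genes did. Many genes have no region at all: among those with an early region 22 of 37 related genes, 59.5%, and 73.1% of 10864 genes overall had fewer, and the median difference was -1 in both. Of the related genes 2 (Vps13b and Eya4) had at least 10 fewer.

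The neighbourhood of the genes was looked at after the values above were seen. Within 1 Mb to either side of the 10 genes there were 522 other early Foxa1 regions, and 88 persisted, 16.9% (13.7 to 20.4%). Within 500 kb it was 32 of 268, 11.9% (8.31 to 16.4%), and within 250 kb 10 of 149, 6.71% (3.27 to 12.0%), an interval that includes the 10.7% of the genes' own regions. Around Tnfrsf21 2 of 52 regions within 1 Mb persisted and around Mtus1 3 of 48, whereas around Macrod2 9 of 23 and around Edn1 26 of 113 did. Several next genes had losses of like size. Auh, beside Nfil3, had 27 early and 2 late Foxa1 regions, Cd2ap and Adgrf1, on either side of Tnfrsf21, had 20 and 3 and 15 and 0, and Hivep1, beside Edn1, had 16 and 3. Ror2, the other neighbour of Nfil3, had 6 and 6, and Kif16b, beside Macrod2, had 9 and 8. Nova1, the next gene after Stxbp6 but 1623 kb away and so outside these windows, had 1 and 6. Losses near several of the genes thus reached past the regions assigned to them.

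**Figure D4:**
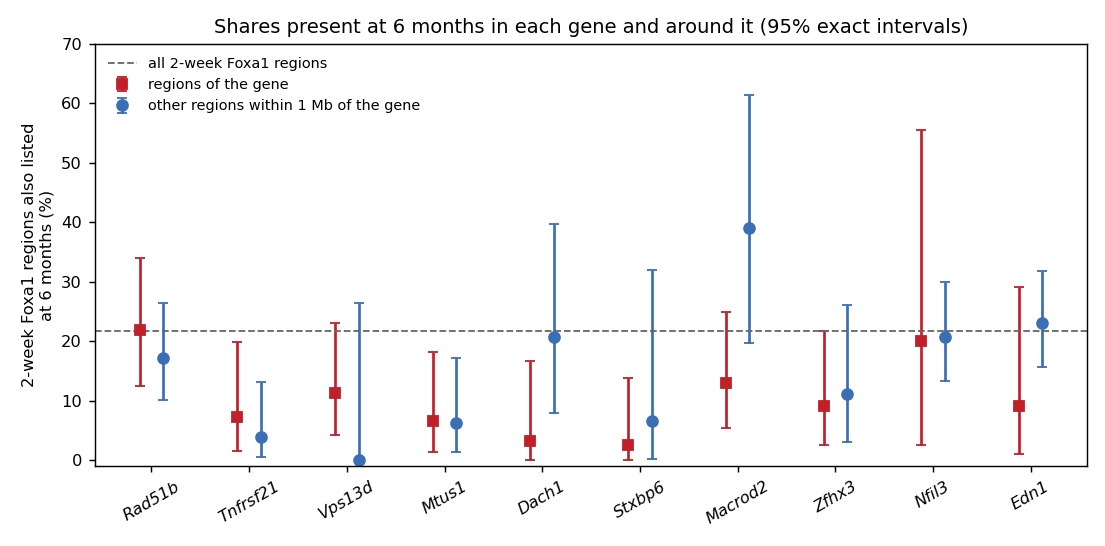
Share of 2-week Foxa1 regions persisting at 6 months (vertical axis, %) for the regions of each gene (squares) and for other regions within 1 Mb of it (circles), with exact 95% intervals, and for the whole list (dashed line, 21.8%). Stxbp6 and Dach1 have the lowest shares of their own, and the circles of Tnfrsf21, Mtus1, Stxbp6 and Vps13d also lie under 10%.

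Some regions were listed only at 6 months, and their number depended on the rule: 19 of 67 late Foxa1 regions shared no base with an early one, and 38 had no early summit within 200 bp. Of the 67 late Foxa1 regions at the 10 genes 48 lay on early ones, 71.6% (59.3 to 82.0%), beside 35.1% of the whole 6-month list, and of the 75 Foxa2 regions 52 did, 69.3% (57.6 to 79.5%), beside 36.8%. The genes were chosen for many early regions, so these shares are a description. The 19 late Foxa1 regions without an early one lay at Macrod2 (9), Zfhx3 (5), Rad51b (4) and Edn1 (1), and 12 of them carried Foxa2. Foxa2 was listed with Foxa1 in 47 of the 67 late regions, 70.1%, and in 63.4% of the whole list. Foxa2 regions outside every Foxa1 region numbered 11, with 4 at Zfhx3 and 3 at Macrod2.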

How the data were processed

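Peak lists of Foxa1 and Foxa2 ChIP-seq libraries after 2 weeks and 6 months of tamoxifen were used, 1 library per group; input libraries were not used here. The build was mm10, and the tools MACS2 2.1.1, HOMER, Bowtie2, Trim Galore 0.5.0, DiffBind 2.12.0, deepTools 3.2.1 and bedtools 2.25.0, per the submitters' processing notes. The role and settings of each tool, and any use of input by the caller, were not given in the sources used here. Each deposited list holds, per peak, the authors' fold enrichment (a ratio over local background), -log10 values for p and q (p-value and q-value), and a score, the -log10 q times 10 without its decimals. Only the main chromosomes were kept, and 12, 2, 0 and 3 peaks (Foxa1 at 2 weeks and 6 months, Foxa2 at 2 weeks and 6 months) were left out.

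Genes and promoters came from RefSeq tables of GRCm38.p6, whose coordinates are those of mm10. The promoter table held 9 members, without Mtus1. Lists of equal length held the 34942 strongest regions by -log10 q, with ties broken by position. Shares were described with exact intervals and no test, since regions of 1 library are not replicates. The members and gene lists were chosen with earlier results of these data known. Named items were all members, their strongest and strongest persisting early regions, late regions where there were 5 or fewer, the 5 genes after the 10 largest deficits, and genes of the lists; other regions and neighbouring genes were picked after their values were seen. Computation used Python 3.11.15, numpy 2.4.6, pandas 2.3.3, scipy 1.17.1 and matplotlib 3.10.9. In a simulation on 54226 regions all 16223 planted overlaps were found, and 2000 of 2000 gene assignments equalled a direct search. A few genes of the lists are not reported here by name.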

Additional observations from a re-analysis of the deposited data

How the results depend on the processing

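No paired analysis was possible because each group holds 1 library, and no replicate could be left out. The difference between late and early Foxa1 regions of single genes was recomputed 60 times (10 genes, 6 alternatives). It lay below 0 in 59, and inside the gene only, Edn1 had a difference of 0. The genes were chosen for fewer late than early regions, so this sign follows the choice. In size, 32 of the 60 stayed within 1.5 times the reported difference and 28 did not. Counts of persisting regions per gene stayed within 1.5 times the reported one in 53 of 90 recomputations.

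Limited to -log10 q values of 5 or more, the genes had 263 early and 26 late Foxa1 regions and 30 Foxa2 regions, Foxa1 persisted in 6.84% and Foxa2 met 7.98%, and 9 late Foxa1 regions had no early one. With a fold enrichment of at least 5 the counts were 130, 14 and 12, the shares 6.92% and 4.62%, and Foxa2 met 1.65% of lost regions; the whole list then kept 13.1%. A reciprocal overlap of 50% gave 3.48% for Foxa1 and 5.72% for Foxa2. With summits within 200 bp Foxa1 persisted in 7.21%, beside 15.7% of the whole list, and 38 late regions had no early one. Around the genes the share was 11.9% within 500 kb and 6.71% within 250 kb. These alternatives leave fewer regions or demand a closer match by construction. Without Rad51b, an alternative chosen after seeing the data, as were the smaller neighbourhoods, 8.58% persisted. Lists of equal length, assignment inside the gene or within 20 kb, summits within 1000 bp and joined regions gave 9.14 to 12.0% for persisting Foxa1 regions. The whole list then kept 26.2% with equal lengths, 23.8% with summits within 1000 bp, 23.1% with joined regions and 21.8% otherwise. For Foxa2 no share of the whole list was computed under the alternatives. Strength ranked by fold left persisting regions 24.2 percentage points above lost ones (26.6 by -log10 q). Read depth is unknown, so whether a lost region lay just under the 6-month threshold cannot be read from these lists.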
